A study of Mus musculus with 8 samples.

Results

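RNA abundance was described in the 4 solvent-only libraries of the YUMM5.2 line, a mouse melanoma of strain C57B/6J, out of 8 libraries in the series. Members were taken by their label: the libraries whose titles name DMSO, the reagent control, cultured for 20 h. The other 4 libraries received 4-OI, described in the labels as a permeable form of itaconate, and enter no value or comparison here. No label gives a further genotype, the passage, or whether the line is 1 clone; each condition is said to have been sequenced in 4 experiments, but nothing says that these were separate cultures, so the spread given below measures the spread between these libraries and may be technical.

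YUMM lines come from melanomas of mice engineered to carry an activated Braf gene together with lost tumour suppressors, and are grown as syngeneic models in immunocompetent hosts. Melanocytes arise from the neural crest. Their pigment programme is run by the transcription factors Mitf and Sox10, and melanoma cells can lose it, passing through states described as neural crest-like or as undifferentiated and mesenchymal, in which pigment genes are low and genes such as Axl, Fosl1 and Zeb1 are high.

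Polyadenylated RNA was read as paired ends, and the 4 libraries held 22962963 to 31361677 expected counts each. TPM, a scale on which every library sums to 1000000, is the share of transcripts after transcript length is taken into account, so levels of different genes can be set side by side. A gene was called expressed when it had 1 TPM or more in every one of the 4 libraries. This held for 11639 of 55492 tabulated genes (21%) and for 10669 of 21974 protein-coding genes (48.6%). No count was recorded in any of the 4 libraries for 30741 genes. For such a gene, 3 of the 104982324 counts in all, or 0.0286 CPM (counts scaled to 1000000 per library), is the upper limit that a count of 0 allows, and this covers counting error only. In bulk RNA, fewer cells of a type and less RNA per cell cannot be told apart.

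Few genes held most of the TPM. The 10 most abundant genes held 12.1% of all TPM, the top 100 held 34.1% and the top 1000 held 67.7%. The first gene, mt-Atp8, alone held 4.62%, a level that depends on the length used, as given below. The first 298 genes made up 50% of TPM and the first 4198 made up 90%. Among expressed protein-coding genes the median was 23.5 TPM, and 1439 protein-coding genes reached 100 TPM in every library. Of the 30 genes at the head of the list, 7 were mitochondrially encoded, 9 were cytosolic ribosomal protein genes, 3 were nuclear pseudogenes with the sequence of mitochondrial genes, and 11 were others. Those 11 were Lgals1 (a secreted galactoside-binding lectin), Atp5b (a subunit of ATP synthase), S100a4 and S100a6 (small calcium-binding proteins), Eef1a1 (translation elongation), Gapdh (glycolysis), Actb (actin), Ftl1 (ferritin light chain), Spp1 (osteopontin), Vim (vimentin) and Hmga1 (a chromatin protein).

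**Figure D1:**
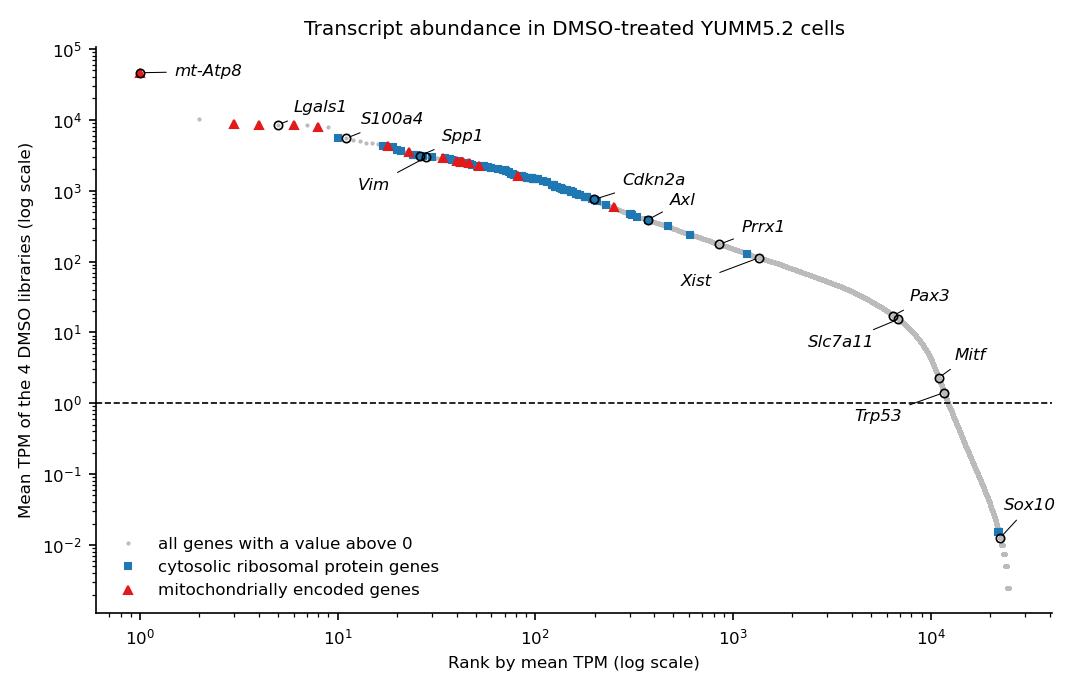
Mean TPM of the 4 DMSO libraries (vertical, log scale) against rank (horizontal, log scale) for every gene with a value above 0; blue squares are cytosolic ribosomal protein genes, red triangles are mitochondrially encoded genes, open circles mark labelled genes and the dashed line is 1 TPM. Lgals1, S100a4, Spp1 and Vim stand near the top, Axl and Cdkn2a between 100 and 1000 TPM, and Sox10 near the bottom at 0.0125 TPM.

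Lgals1 was the highest nuclear protein-coding gene on average, with 8339, 8493, 8357 and 8836 TPM in the 4 libraries. Its values lay within a narrow band, with a mean of 8506 ± 231 TPM (SD, n = 4). Atp5b had 8034, 8546, 8774 and 8077 TPM, above Lgals1 in replicates 2 and 3, but this level depended on the transcript length assumed and was 1310 TPM when counts were divided by the merged exons of the gene. S100a4 had 5391, 5327, 5374 and 5714 TPM, and replicate 4 lay above the other three. Spp1, a secreted phosphoprotein of bone and tumours, had 3046, 3103, 3197 and 3051 TPM. Hmga1, which is abundant in embryonic and many transformed cells, had 2933, 2949, 2952 and 2955 TPM, and its relative Hmga2 had 379, 366, 359.7 and 346 TPM. Crabp1, a retinoic acid-binding protein chosen after its values were seen, had 2761, 2865, 2997 and 2823 TPM. These genes kept their order of magnitude in every library. Levels also rest on the transcript lengths used: with counts divided by merged exon length, 41 of 315 named genes at 1 TPM or more on average came out lower by more than 1.5 times and 110 higher, among them Axl (594 TPM) and Fosl1 (223 TPM).

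Mitochondrially encoded genes held 10.5 ± 0.148% of TPM (SD, n = 4) and 3.04 ± 0.0353% of expected counts. Much of the TPM share was mt-Atp8, a gene of 204 bases, at 46158 ± 2126 TPM (SD, n = 4), which is 4882 TPM by merged exon length. Without it the mitochondrial share was 5.90 ± 0.0785%. In the nuclear genome, 5 unprocessed pseudogenes between positions 24611535 and 24615565 of chromosome 1 (GRCm38) each exceeded 1000 TPM. Every stretch of 31 bases in them also occurs in a mitochondrial transcript: Gm10925 in mt-Atp6, Gm28661 in mt-Co2, Gm28437 in mt-Co3, Gm28439 in mt-Nd4 and Gm10222 in mt-Nd4l. A read from such a stretch does not show which of the pair it came from; Gm28439 has 876 bases against 1378 in mt-Nd4, so part of mt-Nd4 lies outside its copy. Gm28437 was read at 4917, 4636, 5772 and 5242 TPM and mt-Co3 at 2281, 2703, 1768 and 2226 TPM. Where the pseudogene was high the mitochondrial gene was low: the coefficient of variation (CV, the SD divided by the mean) was 9.48% and 17% for the members and 2.04% for their sum. For Gm10925 and mt-Atp6 the sum was 12000 TPM with a CV of 1.84%, between 0.736% for Gm10925 and 13.8% for mt-Atp6. The sum of Gm10222 and mt-Nd4l had a CV of 3.41%, between 2.39% for mt-Nd4l and 14.1% for Gm10222. In the pairs of Gm28661 and Gm28439 the sum had a CV of 3.59% and 1.75%, below that of either member. Adding the copies brings the mitochondrial share to 13.1 ± 0.194%.

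The melanoma origin of the line was checked against melanocytic genes. The pigment programme was almost silent: 3 of 22 listed genes were expressed (13.6%, against 48.6% of protein-coding genes), and 5 had no count in any library. Tyr, the enzyme that starts melanin synthesis, had 1 count in the 4 libraries together, Dct had 1, Mlana had 1 and Tyrp1 had none. Sox10, the neural crest and melanocyte regulator, had 0, 0, 2 and 0 counts in replicates 1 to 4. Pmel, the melanosome fibre protein, had 0.300, 0.150, 0.710 and 0.09 TPM, below 1 TPM throughout and scattered. The receptors of the lineage were equally low, with Kit at 0.005, Ednrb at 0.02, Mc1r at 0.005 and Erbb3 at 0.055 TPM on average. By these markers the libraries go against a pigmented melanocytic state, and the cells are called YUMM5.2 cells here.

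The 3 expressed genes of the list were Gpnmb, Pax3 and Mitf. Mitf, the master regulator of pigment genes, had 2.43, 2.21, 2.29 and 2.21 TPM from 165, 146, 160 and 197 counts, which placed it at rank 10972. Pax3, a neural crest factor upstream of Mitf, had 17.9, 18.1, 17 and 16.2 TPM. Gpnmb, a transmembrane glycoprotein of melanosomes and of other cells, had 75.2, 71.6, 65.8 and 63.0 TPM. The ranges of these 3 genes over the libraries did not overlap. Of the relatives of Mitf, Tfe3 averaged 38.5 ± 2.19 TPM and Tfeb 4.17 ± 0.296 TPM (SD, n = 4), while Tfec had no count. Tfe3 was the highest of these 4 factors in every library.

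Mitf binds the letters CATGTG, a form of the E-box CANNTG, so the start sites of the silent pigment genes were read beside those of expressed genes. Windows of 250 bases before the start, from RefSeq with build GRCm38.p6, were found for 16784 of the 21974 protein-coding genes. The windows below, all 5′ to 3′ on the gene's strand, show 2 silent members, Tyr (chr7:87493513-87493762, minus strand) and Trpm1 (chr7:64153585-64153834, plus strand), and 2 expressed genes, Gpnmb (chr6:49036268-49036517, plus strand) and Twist1 (chr12:33957421-33957670, plus strand). Capitals mark CATGTG in Tyr and Trpm1, and TATAAA in Tyr and Twist1.
Tyr: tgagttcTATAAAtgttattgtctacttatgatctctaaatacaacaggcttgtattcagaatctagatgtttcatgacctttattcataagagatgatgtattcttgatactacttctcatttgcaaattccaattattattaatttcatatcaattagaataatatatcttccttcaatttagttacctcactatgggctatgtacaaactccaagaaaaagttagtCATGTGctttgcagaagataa
Trpm1: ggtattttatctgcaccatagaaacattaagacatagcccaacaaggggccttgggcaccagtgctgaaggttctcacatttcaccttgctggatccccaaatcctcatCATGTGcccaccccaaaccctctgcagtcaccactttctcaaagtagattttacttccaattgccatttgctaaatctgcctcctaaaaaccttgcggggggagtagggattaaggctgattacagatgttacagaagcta
Gpnmb: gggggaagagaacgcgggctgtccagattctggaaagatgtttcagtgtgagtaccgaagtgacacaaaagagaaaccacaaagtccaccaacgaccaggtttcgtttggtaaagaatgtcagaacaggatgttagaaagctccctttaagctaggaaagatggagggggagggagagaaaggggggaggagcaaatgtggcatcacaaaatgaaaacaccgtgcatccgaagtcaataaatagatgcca
Twist1: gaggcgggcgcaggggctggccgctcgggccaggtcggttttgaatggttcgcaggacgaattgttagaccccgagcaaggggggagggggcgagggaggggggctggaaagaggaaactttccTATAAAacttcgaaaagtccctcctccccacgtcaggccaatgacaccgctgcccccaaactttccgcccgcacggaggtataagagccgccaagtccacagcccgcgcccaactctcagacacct
CATGTG on either strand was present in 8 of the 14 melanocytic windows found (Dct, Mc1r, Oca2, Slc24a5, Trpm1, Tspan10, Tyr and Tyrp1), in 0 of 11 neural crest-like and in 1 of 19 undifferentiated windows (Runx2), against 9.81% of all windows. None of these 8 genes was expressed, and they belong to a list with 3 of 22 genes expressed. Among all genes with a window, 34.9% of the 1646 with CATGTG were expressed, against 52.7% of those without it. Gpnmb and Mitf, which were expressed, have no CATGTG in the window nearest their annotated start. The AP-1 letters TGANTCA, which read the same on both strands, were in 1, 0 and 1 windows of the 3 lists and in 6.21% of all windows. TATAAA, searched on the gene's strand, was in 1, 0 and 6 windows and in 8.19% of all. A match is a description of letters and not a bound site. Across all windows, 43.0% were CpG-rich (GC above 50% and an observed to expected CpG ratio above 0.6), and 81.0% of the genes with such a window were expressed, against 28.2% of the others. Among genes below the expression limit 16.7% of windows were CpG-rich, and among expressed genes the share was 58.9% at 1 to 10 TPM, 71.6% at 10 to 100 TPM, 72.6% at 100 to 1000 TPM and 65.7% in the 99 genes at 1000 TPM or more.

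Neural crest-like genes were present at moderate levels: 12 of 17 were expressed (70.6%, against 48.6% of all protein-coding genes). Of these, 6 were at 10 TPM or more in every library. Nes, the intermediate filament of neural progenitors, was the highest with 59.1, 61.7, 63.4 and 62.5 TPM, and Ncam1, a neural adhesion molecule, had 36.3, 37.0, 37.0 and 33.3 TPM. The factors Tfap2b and Tfap2a, which specify neural crest, had 34.7, 37.2, 32.8 and 37.7 TPM and 17.6, 17.4, 17.7 and 14.6 TPM, with replicate 4 of Tfap2a below the others. Snai2 averaged 26.3 ± 1.82 TPM, Sox9 10.5 ± 0.538 TPM, Msx1 6.96 ± 0.522 TPM and Foxd3 5.86 ± 0.576 TPM (SD, n = 4). Of the surface molecules, the GDNF-family coreceptors Gfra2 and Gfra1 averaged 12.7 ± 0.937 TPM and 9.98 ± 1.46 TPM. Not expressed were Ngfr, the receptor most used to mark this state, with 0.05, 0.02, 0.04 and 0 TPM, as well as S100b, L1cam and Rxrg. The regulators of the neural crest were thus read without the pigment genes and without Ngfr or Sox10.

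Genes of the undifferentiated state made up the highest of the 3 lists: 32 of 34 were expressed (94.1%, against 48.6% of all protein-coding genes). Of these, 28 were at 10 TPM and 10 at 100 TPM or more in every library. The median of the list was 44.7 TPM, against 0.0188 TPM in the melanocytic and 6.96 TPM in the neural crest-like list. All 10 transcription factors were expressed. Prrx1, a mesenchymal homeobox factor, had 176, 173, 179 and 169.6 TPM, and Fosl1, the AP-1 subunit of invasive melanoma cells, had 131, 132, 137 and 144 TPM. Twist1 and Twist2, which drive epithelial-mesenchymal transition, were at 68.8 ± 5.17 TPM and 69.7 ± 1.42 TPM (SD, n = 4), with overlapping ranges, but at 137 and 55.3 TPM by merged exon length. Zeb1 had 34.1, 36.3, 37.0 and 32.8 TPM and Zeb2, which is linked to the differentiated state in melanocytes, had 30.0, 30.8, 29.1 and 27.6 TPM. The level of Zeb1 was above that of Zeb2 in every library, but Zeb2 is 15.9 TPM by merged exon length, so their distance depends on the length used.

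Matrix, adhesion and cytoskeleton genes of the same list had a median of 95.2 TPM, against 47.9 TPM for its transcription factors and 17 TPM for its receptors, of which Axl and Cd44 stood high. Axl, a receptor tyrosine kinase of the TAM family, had 401, 376, 395 and 381 TPM, and Cd44, the hyaluronan receptor, had 449, 440.2, 449.6 and 432 TPM. Vim had 2913, 2927, 3012 and 2949 TPM, Sparc, a matrix glycoprotein, had 1378, 1392, 1522 and 1397 TPM, and Fn1, fibronectin, had 400.02, 397, 418 and 381 TPM. The YAP and TEAD targets Ccn1 and Ccn2 averaged 367 ± 7.57 TPM and 149 ± 6.46 TPM. Cdh2, N-cadherin, had 90.1, 86.9, 86.0 and 84.0 TPM, whereas Cdh1, E-cadherin, had 0.08, 0.06, 0.04 and 0.01 TPM. Egfr was low among the receptors at 8.45 ± 0.565 TPM, and Thy1 and Il6 were below 1 TPM in every library. Values of a gene differed little between libraries: the median CV of the 30 members at 5 TPM or more was 3.89%.

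**Figure D2:**
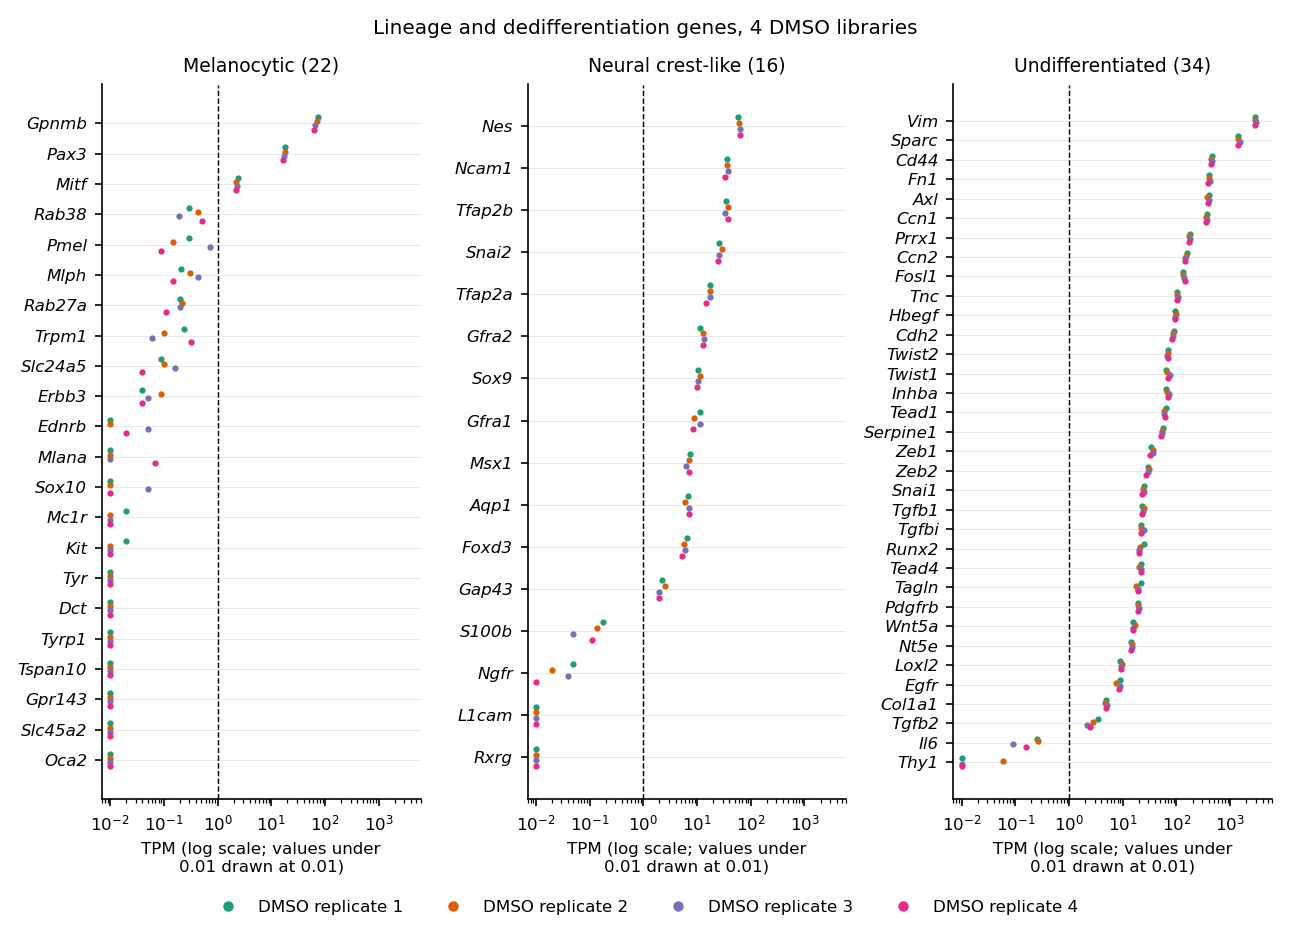
TPM (log scale) of the members of 3 lists in the 4 DMSO libraries, 1 row per gene and 1 point per library, with values under 0.01 drawn at 0.01 and a dashed line at 1 TPM. In the melanocytic list 3 of 22 genes lie right of the line in every library, in the neural crest-like list 12 of the 16 drawn and in the undifferentiated list 32 of 34.

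Markers of other cell types were read in the same way, since the undifferentiated and fibroblast lists share Col1a1, Pdgfrb and Thy1. The share expressed among all protein-coding genes was 48.6%. Of 10 fibroblast markers 6 were expressed, and their summed level was 869 to 928 TPM, most of it Col1a2 with 674, 674, 702 and 665 TPM. Col3a1 had 138, 150.4, 168 and 165 TPM, while Col1a1, which pairs with Col1a2 in type I collagen, had 4.82, 4.77, 5.17 and 4.92 TPM. The difference between the chains is far outside the spread of either. Lum had no count, Dcn averaged 1.66 TPM, and Fap, Dpt and Thy1 were below 1 TPM. Of 10 immune markers only Cd68 was expressed, at 2.83 ± 0.178 TPM; the sum was 3.55 to 4.19 TPM and Lyz2, Adgre1 and Tyrobp had no count. Of 8 endothelial markers only Egfl7 was expressed, at 8.68 ± 1.07 TPM, with a sum of 7.26 to 9.95 TPM and no count for Kdr or Cldn5. Krt10 and Sfn were the 2 of 8 keratinocyte markers expressed, with a sum of 4.64 to 6.11 TPM. Of 8 Schwann cell markers 3 were expressed (Pmp22 at 30.0, Cnp at 5.89 and Prx at 4.59 TPM), with a sum of 38.9 to 43.2 TPM. Of 8 muscle markers Smtn and Cnn1 were expressed, with a sum of 53.5 to 61.0 TPM and no count for Myod1, Myog or Actc1. Acta2, the smooth muscle actin given below, is not in this list and averaged 273 TPM. What part other cells had in the levels of collagen and mesenchymal genes was not tested.

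Genes of the oncogenic pathways and of the cell cycle were nearly all expressed, 38 of 42 (90.5%, against 48.6% of all protein-coding genes). Braf had 7.97, 7.2, 7.27 and 7.0 TPM and was the lowest of the 13 MAPK and PI3K genes, below Araf at 35 ± 1.21 TPM (SD, n = 4); abundance says nothing of the allele. Mapk3, which encodes ERK1, was the highest of these at 173 ± 7.19 TPM. Trp53, which encodes p53, had 1.54, 1.42, 1.26 and 1.45 TPM from 44, 38, 32 and 51 counts, and its target Cdkn1a had 9.97, 11.8, 13.2 and 11.2 TPM. Cdkn2a, whose gene encodes the cell cycle inhibitors p16 and p19ARF, had 745, 745, 782 and 733 TPM, and its neighbour Cdkn2b had 148, 152, 164 and 155 TPM. Gene-level values do not separate the 2 products of Cdkn2a. The tumour suppressor genes thus spanned from just above the expression limit for Trp53 to the top 200 genes for Cdkn2a, which had rank 198.

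Cell cycle drivers were high. Ccnd1, cyclin D1, had 465, 448, 463 and 435 TPM, Cdk4 had 436, 444, 450.4 and 423 TPM and Cdk1 had 452, 436, 423 and 458 TPM, although Cdk1 is 122 TPM by merged exon length. Myc had 114, 109, 112 and 106 TPM, while Mycn averaged 0.08 and the telomerase subunit Tert 0.568 TPM. Xist, the RNA that coats an inactive X chromosome, had 117, 113, 110.1 and 114 TPM. None of the 175 protein-coding genes of the Y chromosome was expressed, the highest having 0.107 TPM. Tsix, which overlaps Xist in antisense, averaged 0.015 TPM, and whether the counting used strand is not known here.

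Structural and calcium-binding proteins were read next. Of 18 actins and intermediate filaments 9 were expressed (50%, near the 48.6% of all protein-coding genes). Their summed level was 11305 to 11768 TPM. Actb had 4789, 4519, 4363 and 4345 TPM and Actg1 had 2176, 2116, 2121 and 2126 TPM, and Acta2, the smooth muscle actin of myofibroblasts, had 292, 275, 254 and 269 TPM. Lmna, which encodes the A-type lamins of the nuclear envelope, had 1411, 1445, 1475 and 1431 TPM, above Lmnb1 at 87.9 ± 2.16 TPM and Lmnb2 at 26.3 ± 0.826 TPM (SD, n = 4). The epithelial keratins Krt7, Krt8, Krt18 and Krt19 were below 1 TPM in every library, as were Des of muscle, Gfap of glia and Prph of peripheral neurons. Of 14 S100 genes 8 were expressed (57.1%, against 48.6% of all protein-coding genes), and their sum was 14300 to 14926 TPM. After S100a4 and S100a6 came S100a11 with 2971, 2932, 2751 and 2848 TPM and S100a10, a partner of annexin A2, with 1346, 1378, 1387 and 1394 TPM. S100b, used as a marker of melanocytic and Schwann cells, averaged 0.120 TPM, and S100a9 of myeloid cells had no count. Of 23 cadherins 6 were expressed (26.1%, against 48.6% of all protein-coding genes). Cdh2 was followed by Cdh6 with 71.9, 68.8, 69.0 and 66.9 TPM, Cdh26 with 52.6, 47.9, 46.0 and 49.9 TPM and Cdh13 with 27.6, 35.2, 34.7 and 29.3 TPM, and Cdh11, a mesenchymal cadherin, averaged 13.1 ± 0.339 TPM. Cdh1 of epithelia and Cdh3, P-cadherin, were both below 1 TPM. Cytosolic ribosomal protein genes were expressed in 83 of 86 cases, all 83 at 100 TPM or more in every library, and together reached 132136 to 138833 TPM.

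Positional and embryonic regulators were expressed in part. Of 39 HOX genes, which record position along the body axis, 24 were expressed (61.5%, against 48.6% of all protein-coding genes). The Hoxa cluster had 9 of 11 genes expressed, Hoxb with 8 of 10, Hoxc with 3 of 9 and Hoxd with 4 of 9. Hoxb7 had 48.0, 45.1, 47.4 and 45.5 TPM and Hoxa9 had 46.6, 46.5, 47.1 and 45 TPM, overlapping ranges that separate by merged exon length (72.4 and 26.9 TPM), followed by Hoxd8 at 39.6 ± 2.22 TPM, Hoxc6 at 32.6 ± 1.63 TPM and Hoxa10 at 24.7 ± 1.02 TPM (SD, n = 4). In the Hoxc cluster only Hoxc4, Hoxc5 and Hoxc6 were expressed. Sox2, a factor of pluripotent and neural stem cells, was the highest of 19 SOX genes with 82.3, 78, 78 and 76.7 TPM, above Sox4 with 45.5, 45, 43.7 and 42.5 TPM. Sox9 and Sox2 were therefore read in cells with almost no Sox10. Of 9 PAX genes only Pax3 and Pax9 were expressed (22.2%), Pax9 at 6.72 ± 0.403 TPM. Of the oncofetal and imprinted genes 7 of 15 were expressed (46.7%, near the 48.6% of all protein-coding genes), led by Hmga1 and Hmga2. Igf2bp2 averaged 43.7 ± 1.32 TPM and Lin28b 3.33 ± 0.194 TPM, while Igf2, H19, Meg3 and Dlk1 were below 1 TPM.

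AP-1 and TEAD factors, which drive many of the undifferentiated genes, were abundant. They belong to a list that also holds AP-2, RUNX and MiT/TFE factors. In that list 20 of 25 genes were expressed (80%, against 48.6% of all protein-coding genes). The AP-2 family had 2 of 5 expressed. Fosl1 was the highest AP-1 subunit, followed by Junb with 102, 99.1, 108 and 106 TPM, Jun with 103, 103, 100.3 and 100.1 TPM and Jund with 91.3, 95.7, 95.4 and 92.9 TPM; Junb and Jun had overlapping ranges, and by merged exon length Jun (224 TPM) and Fosl1 (223 TPM) were nearly equal. Fos, an immediate early gene, averaged 0.915 TPM and was the only 1 of 7 AP-1 genes not expressed. All 6 of the TEAD factors and their cofactors were expressed, with Wwtr1, which encodes TAZ, at 92.5 ± 2.88 TPM, Tead1 at 60.8 ± 1.88 TPM and Yap1 at 46.7 ± 1.15 TPM. Runx1 averaged 32.5 ± 0.970 TPM and Runx2 21.6 ± 2.45 TPM.

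Receptor tyrosine kinases were led by Axl. Of 58 genes 25 were expressed (43.1%, near the 48.6% of all protein-coding genes), and 3 reached 100 TPM in every library. Fgfr1 had 153, 150.3, 155 and 150.2 TPM and Ddr2, a collagen receptor, had 116, 115, 124 and 120.1 TPM. Ryk, a Wnt coreceptor, averaged 81.5 ± 1.25 TPM, Epha2 68.7 ± 1.42 TPM, Met 47.0 ± 1.55 TPM and Pdgfra 31.3 ± 1.34 TPM (SD, n = 4). The ranges of these 7 genes, Axl included, did not overlap, although Ddr2 (185 TPM) was above Fgfr1 (132 TPM) by merged exon length. Kit, the receptor that melanocytes depend on, had 1 count in all.

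Set beside their textbook ligands, read after the values were seen, several receptors and ligands were unequal. Axl stood at 388 TPM and its ligand Gas6 at 0.01 TPM. Kitl, the ligand of Kit, averaged 59.8 TPM against 0.005 TPM for Kit. Csf1, the macrophage growth factor, had 425, 392, 400.2 and 390.2 TPM, and its receptor Csf1r averaged 0.055 TPM. Fgf7, which acts on the epithelial form of Fgfr2, had 213, 196, 203 and 195 TPM while Fgfr2 averaged 0.0775 TPM. Hgf averaged 1.48 TPM beside Met at 47.0 TPM. Gdnf averaged 12.3 TPM and its coreceptor Gfra1 was expressed, while Ret, a signalling receptor of this pair, was at 0.015 TPM. Artn, another GDNF-family ligand, averaged 28.7 TPM, and the level of its preferred coreceptor is not given here. Both sides were expressed for Pdgfa, Pdgfb and Pdgfc (44.8, 34.6 and 27.0 TPM) with Pdgfra and Pdgfrb, for Hbegf (96.0 TPM) with Egfr, and for Lif (19.2 TPM) with Lifr and Il6st (11.1 and 59.7 TPM). Protein levels were not measured.

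Of 61 cytokine receptor genes 39 were expressed (63.9%, against 48.6% of all protein-coding genes). Tnfrsf12a, the receptor for TWEAK, was the highest with 631, 656, 646 and 621 TPM, and its ligand Tnfsf12 averaged 11.5 ± 0.453 TPM. Il1rl1, the interleukin 33 receptor better known from mast cells and type 2 lymphocytes, had 194, 186, 184 and 175 TPM, and Il1rap, the chain it signals with, averaged 33.8 ± 0.817 TPM. Il33 itself was near the limit with 1.03, 1.09, 1.52 and 0.770 TPM, below 1 TPM in replicate 4. Ghr, the growth hormone receptor, had 86.4, 93.8, 97.1 and 94.2 TPM, and Il6st, the shared chain gp130, had 60.4, 60.1, 60.6 and 57.6 TPM. All 4 chains of the type I and type II interferon receptors were expressed, Ifngr1 at 48.8 ± 1.71 TPM, Ifnar2 at 44.3 ± 2.33 TPM, Ifngr2 at 34.5 ± 1.93 TPM and Ifnar1 at 28.4 ± 0.580 TPM. Of the TGF-beta and BMP receptors 9 of 13 were expressed, led by Eng, a coreceptor better known from endothelium, with 52.2, 48.6, 46.9 and 49.5 TPM.

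Of 79 G protein-coupled receptor genes 32 were expressed (40.5%, against 48.6% of all protein-coding genes), and none reached 100 TPM. That last point depends on the length used: F2r is 199 TPM and Adgra2 115 TPM by merged exon length. F2r, the thrombin receptor, had 90.1, 88.9, 93.0 and 86.5 TPM, the orphan adhesion receptor Adgra2 had 53.8, 54.8, 58.5 and 53.4 TPM and Lpar1, for lysophosphatidic acid, had 56.7, 53.1, 57.1 and 50.8 TPM. The ranges of Adgra2 and Lpar1 overlapped. Ramp3, a partner protein of calcitonin-family receptors kept in this list, averaged 51.5 ± 1.82 TPM, and Calcrl, a receptor it pairs with, 2.51 ± 0.610 TPM. Sucnr1, the succinate receptor, lay around the limit with 0.780, 1.72, 2.47 and 1.02 TPM. Of the chemokine receptors Ackr3, a scavenger, averaged 18.7 ± 1.92 TPM, whereas Cxcr4 averaged 0.065 TPM. Of 49 nuclear receptors 24 were expressed (49%, near the 48.6% of all protein-coding genes). Rarg, a retinoic acid receptor, had 109, 111, 107 and 104 TPM, followed by Nr2f6 with 57.0, 61.6, 68.2 and 59.6 TPM, Nr2f2 with 49.3, 46.6, 43.5 and 44.9 TPM and Nr3c1, the glucocorticoid receptor, with 38.4, 35.8, 41.7 and 35 TPM. By merged exon length Nr3c1 (48.2 TPM) was above Nr2f2 (31.1 TPM). Rxrb and Rxra averaged 26.6 and 16.4 TPM, and Rxrg, listed among neural crest-like genes, had no count.

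**Figure D3:**
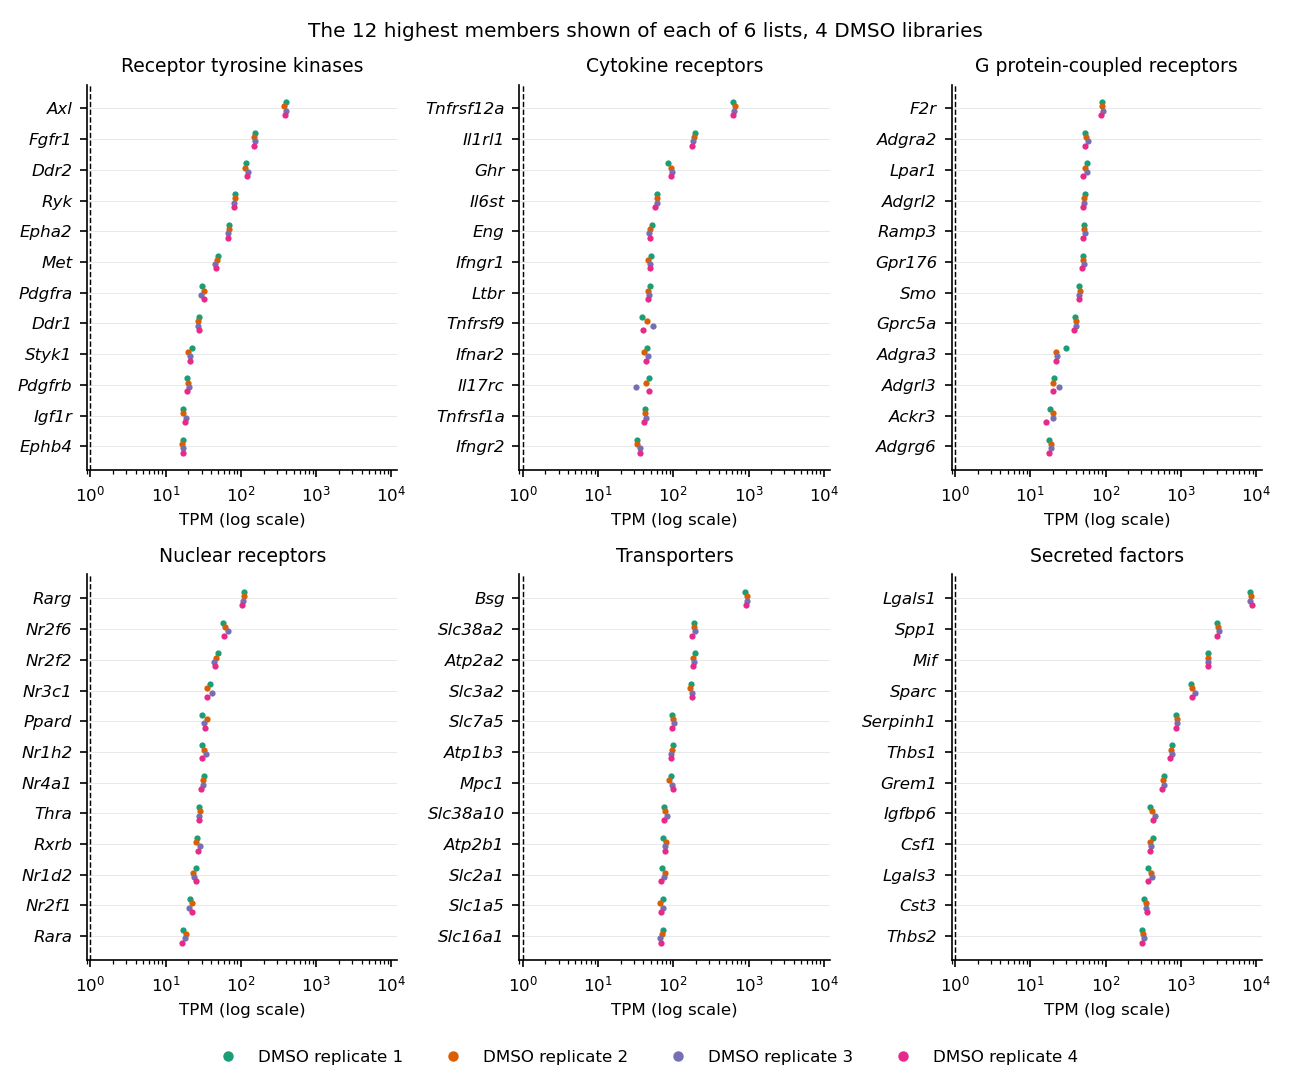
TPM (log scale) in the 4 DMSO libraries of the 12 highest members shown of 6 lists, 1 point per library and a dashed line at 1 TPM. Axl, Tnfrsf12a, F2r, Rarg, Bsg and Lgals1 head the lists, at 388, 638, 89.6, 108, 921 and 8506 TPM on average.

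Of 72 listed transporter genes 36 were expressed (50%), and of all 386 SLC genes 169 (43.8%), shares near the 48.6% of all protein-coding genes. Of 12 glucose transporters 5 were expressed, and the highest was Slc2a1, which encodes GLUT1, with 70.2, 77.4, 74.3 and 69.4 TPM; the next facilitative transporter, Slc2a6, averaged 4.79 TPM. Bsg, the chaperone of lactate transporters, was the highest of the list with 885, 940.3, 943 and 915 TPM, and the lactate transporters Slc16a1 and Slc16a3 had 73.7, 70.3, 67.6 and 68.1 TPM and 41.1, 47.5, 47.3 and 46.5 TPM. Slc16a1 was higher in every library. The mitochondrial pyruvate carrier subunits Mpc1 and Mpc2 averaged 94.1 ± 4.45 TPM and 30.9 ± 1.44 TPM (SD, n = 4).

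Amino acid transporters were led by Slc38a2, a sodium-coupled carrier of small neutral amino acids, with 191, 187, 192 and 179 TPM. Slc3a2, the heavy chain shared by the heteromeric carriers, had 172, 168, 177 and 176 TPM, and its light chains Slc7a5, for large neutral amino acids, and Slc7a11, for cystine, had 95.9, 98.6, 101 and 97.3 TPM and 15.8, 14.8, 15.8 and 14.9 TPM. Slc1a5, a glutamine carrier, averaged 71.2 ± 3.01 TPM. None of the 5 Slc13a carriers of dicarboxylates and citrate was expressed, the highest being Slc13a3 at 0.065 TPM. Atp2a2, the calcium pump of the endoplasmic reticulum, had 192, 184, 187 and 182 TPM. In the whole SLC family the mitochondrial carriers Slc25a5, Slc25a3 and Slc25a4 came first, at 483 ± 9.12 TPM, 402 ± 9.05 TPM and 340.4 ± 8.13 TPM; by merged exon length Slc25a4 (568 TPM) was above Slc25a3 (230.0 TPM). Slc30a4, a zinc exporter, was the highest SLC gene outside the mitochondrial carriers with 202, 201, 211 and 201 TPM. Of 50 ABC genes 25 were expressed (50%, near the 48.6% of all protein-coding genes). The first 3, Abce1, Abcf1 and Abcf2, act in translation and ribosome recycling and transport nothing. The drug exporters Abcc1 and Abcb1b had 48.5, 46.0, 50 and 49.2 TPM and 35.9, 39.4, 40.6 and 38.0 TPM, the latter near-identical to Abcb1a (2.17 TPM) and so less certain.

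Of 139 secreted factors 90 were expressed (64.7%, against 48.6% of all protein-coding genes) and 23 reached 100 TPM in every library. After Lgals1 and Spp1, Mif, a cytokine-like tautomerase, had 2313, 2296, 2291 and 2285 TPM. Thbs1, an inhibitor of angiogenesis and activator of TGF-beta, had 761, 737, 756 and 718 TPM. Grem1, a secreted antagonist of bone morphogenetic proteins, had 589.9, 581, 593 and 565 TPM, and Bmp4, one of its targets, averaged 84.2 ± 15.9 TPM (SD, n = 4). Igfbp6, which binds IGF2, had 392, 414, 447 and 431 TPM, whereas Igf2 and Igf1 themselves were below 1 TPM. Vegfa had 106, 112, 112 and 105 TPM and Hbegf had 95.6, 99.8, 95.5 and 93.0 TPM. Serpinh1, a collagen chaperone that stays in the endoplasmic reticulum although listed here, had 862, 889, 889 and 858 TPM. Of 25 cytokines 9 were expressed, and Il1b, Tnf, Il10, Osm and Ifnb1 had no count in any library. Among 15 Wnt and IGF modulators, 7 were expressed, and each of these averaged at least 44.0 TPM while the others stayed below 1 TPM; Dkk2 averaged 126 ± 6.19 TPM and Dkk1 had no count.

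Metabolic isozymes ranged from groups with a single expressed member to groups shared by several. Of 51 groups of enzymes or carriers with alternative members, 49 had an expressed leader, and the same member led in all 4 libraries in 46. A single member was expressed in 15 groups. The leader held more than 90% of the group's summed TPM in 20 groups and less than 60% in 14. Its range over libraries did not overlap that of the second member in 45 groups. An exact paired sign-flip permutation test (two-sided, log2 of TPM + 0.1) returned p = 0.13 after rounding, the smallest that 4 libraries can give, in those 46 groups, and 0.133 after Benjamini-Hochberg adjustment over the 49 groups. Because the leader was picked in the same libraries, this restates the count of 46 and tests nothing beyond it.

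In glycolysis Aldoa (99.8% of its group), Pgk1, Gapdh and Pkm (each 100% after rounding), Pgam1 (99.9%), Ldha (96.5%) and Eno1 (95.5%) led almost alone. Pkm had 2210.1, 2262, 2239 and 2200.2 TPM and Ldha had 2183, 2248, 2246 and 2148 TPM. The entry steps were shared. Hk1 held 64.9% of hexokinase with 85.6, 85.6, 88.8 and 82.1 TPM, and Hk2, the isozyme often raised in tumours, had 46.3, 46.3, 47.9 and 44.3 TPM. The share of Hk1 was between 64.9% and 65.0% in every library, but by merged exon length Hk1 and Hk2 are 80.8 and 78.1 TPM. Pfkl held 54.7% of phosphofructokinase with 147 ± 4.25 TPM, before Pfkp with 74.3 ± 4.21 TPM, although Pfkp is 29.8 TPM by merged exon length. Pdk1 held 72.5% of the pyruvate dehydrogenase kinases.

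Where an enzyme has a mitochondrial and a cytosolic form, the mitochondrial form was usually the higher one. In 12 such groups, picked out after the values were seen, the mitochondrial form was higher in all 4 libraries in 9 and the cytosolic form in 3, with no overlap of ranges in any of the 12. Shmt2, of serine and one-carbon metabolism, had 259.7, 258, 268 and 265 TPM and Shmt1 had 36.5, 40, 37.3 and 42.5 TPM. Pck2, the mitochondrial PEP carboxykinase, had 67.5, 67.3, 67.5 and 68.4 TPM, and Pck1 had 0.02 TPM in 1 library and 0 in the others. Idh2 averaged 156 ± 2.15 TPM against 41.7 ± 0.655 TPM for Idh1 (SD, n = 4). Got2, Gpt2, Mdh2, Mthfd2 and Me2 led in the same way; Me2 and Me1 changed places by merged exon length. The cytosolic form was higher for Sod1 (812 TPM, with 206 TPM for Sod2), Tk1 (110.1 and 9.03 TPM for Tk2) and Bcat1 (95.4 and 21.6 TPM for Bcat2). Sod1 and Sod2 are 175 and 37.5 TPM by merged exon length.

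In lipid metabolism Scd2 held 70.1% of the stearoyl-CoA desaturases with 444, 436, 444 and 432 TPM, before Scd1 with 209, 180.4, 183 and 178 TPM. Acsl4, which activates polyunsaturated fatty acids, held 47.2% of the long-chain acyl-CoA synthetases with 105, 101, 101 and 96.6 TPM, and all 5 members were expressed. Acaca held 99.4% of acetyl-CoA carboxylase and Hmgcs1 100% of HMG-CoA synthase after rounding. The cyclooxygenases Ptgs1 and Ptgs2, which start prostaglandin synthesis, were both high and nearly equal, with 148, 151, 153 and 139 TPM and 135, 140.2, 137 and 131 TPM. Ptgs1 was higher within each library, but the ranges overlapped and Ptgs2 led by merged exon length. Hmox1, the inducible heme oxygenase, had 36.1, 42.1, 41.2 and 39.4 TPM, and Hmox2 had 36.3, 37.2, 31.7 and 35.5 TPM; Hmox1 was the higher in 3 of 4 libraries. Neither arginase nor any of the 3 nitric oxide synthases was expressed.

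**Figure D4:**
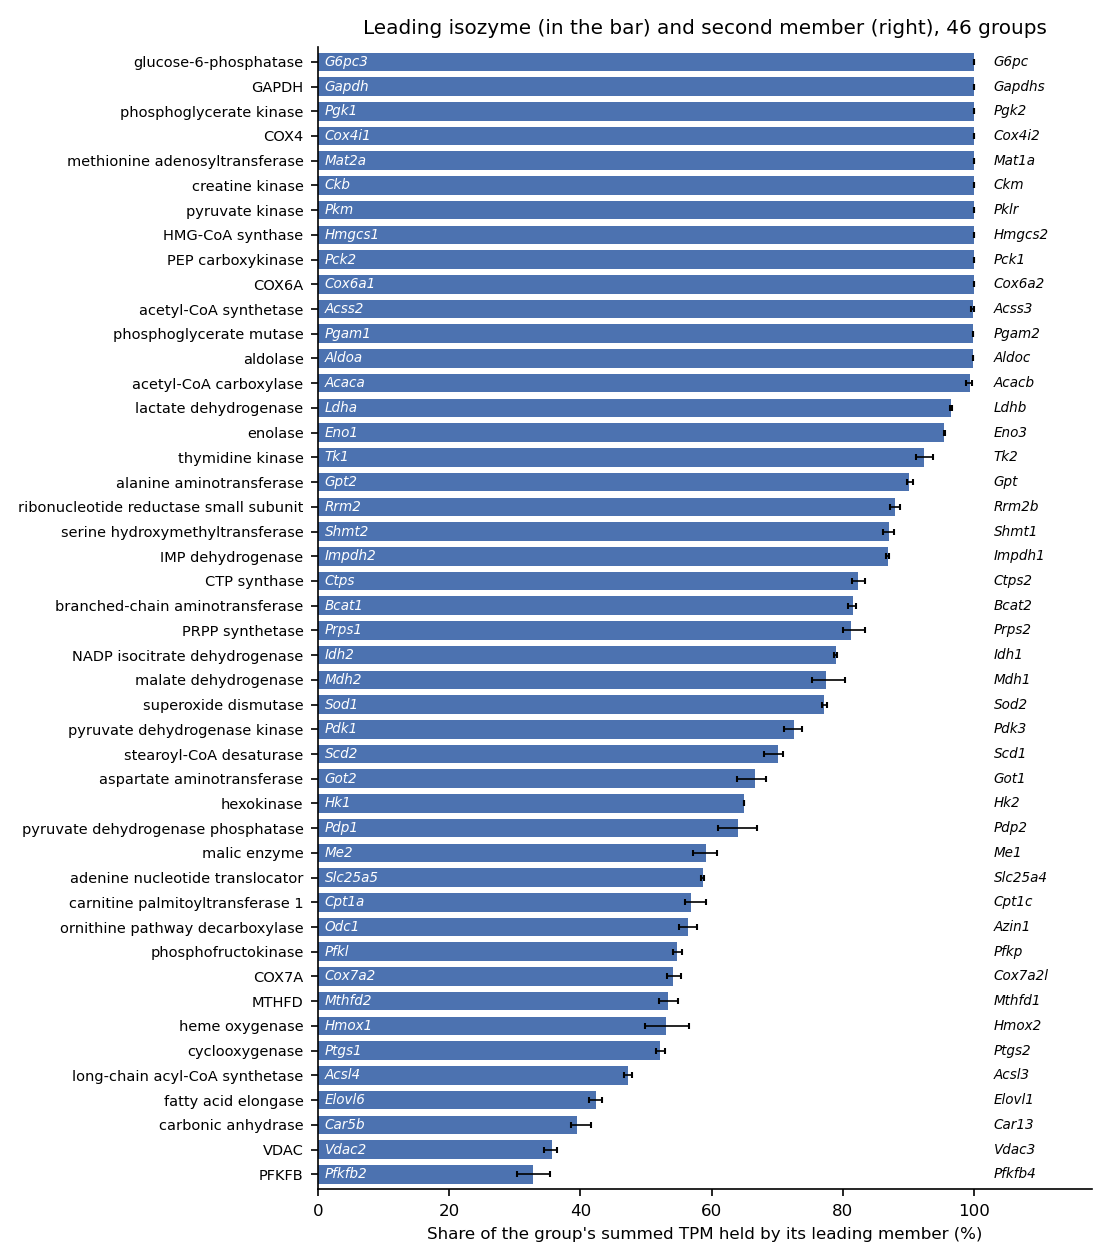
Share of each group's summed TPM held by its leading member (bars, percent, mean of 4 DMSO libraries) with the lowest and highest library (whiskers), for 46 of the 49 groups with an expressed leader; the leading member is written in the bar and the second member at the right. In 18 groups drawn the bar passes 90% and in 14 it stays under 60%.

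The 4 libraries were close to one another. Pearson's r of log2 TPM over the 11639 expressed genes was 0.9936 to 0.9942 for the 6 pairs; the points are genes, which share libraries and are not replicates. The common biological coefficient of variation of edgeR, the spread between libraries beyond counting noise, was 2.57% over 12719 genes. Pairs of libraries had a chi-square per degree of freedom of 2.01 to 3.12, where counting noise alone gives about 1. This value pools all genes with 10 or more counts in the pair, scaled by total counts only. A few genes of high count can raise it, so it does not show how many genes differed beyond counting noise. Among 9436 genes at 5 TPM or more in every library the median CV was 4.57% for TPM and 3.34% for TMM-scaled CPM. The median CV of TPM fell from 7.48% in genes at 5 to 10 TPM to 2.66% in those at 1000 TPM or more.

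Genes with a wide spread in TPM varied in reads in some cases and not in others. Of 171 genes with a TPM CV of 20% or more, 55 also had a CPM CV of 20% or more and 33 had one under 5%. Zfp236, a zinc finger gene, had 61.2, 16.4, 17.8 and 16.1 TPM, with replicate 1 far above the other three, while its CPM was 63.1, 63.6, 69.2 and 63.0. Pnrc2, a nuclear receptor coactivator, had 145, 51.1, 89.9 and 50.6 TPM at 60.1, 59.1, 61.2 and 59.6 CPM. Ece1, the endothelin-converting enzyme, had 23, 62.8, 21.6 and 37.8 TPM with a CPM CV of 1.94%. Mrm1, Zfp950 and Kctd15 had TPM CVs of 70.3%, 75.1% and 39.1% and CPM CVs of 6.63%, 6.92% and 4.72%. Among secreted factors Kitl had 46.6, 62.5, 80.4 and 49.8 TPM from 1938, 1765, 1729 and 2281 counts. TPM of these genes therefore moved between libraries without a like change in the number of reads. RSEM divides reads among transcripts of different length before it sums them to the gene, and its transcript-level values were not analysed here.

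Fewer genes varied in reads. A CPM CV of 20% or more was seen in 57 of the 9436 genes, of which 38 were pseudogenes and 11 protein-coding. Rn7s1 and Rn7s2, signal recognition particle RNAs of identical values, had 28, 24, 24 and 96 counts each, with replicate 4 above the others. Pgk1-rs7 and Rpl38-ps2, pseudogenes of genes with the same stem name, had CPM CVs of 37.7% and 36.3%. Nnt, the mitochondrial transhydrogenase, which carries a deletion in the C57BL/6J strain, was the protein-coding gene of highest count in that set. It had 28.2, 23.8, 44.4 and 27.5 CPM from 746, 577, 1021 and 860 counts and 12.9, 10.8, 19.7 and 12.4 TPM, highest in replicate 3. At the other end Cdc42ep1 had 47.9, 48.0, 47.9 and 47.9 TPM, a CV of 0.121%, Aspm, a spindle protein, had a CV of 0.216% and Ephb4, an ephrin receptor, 0.331%.

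**Figure D5:**
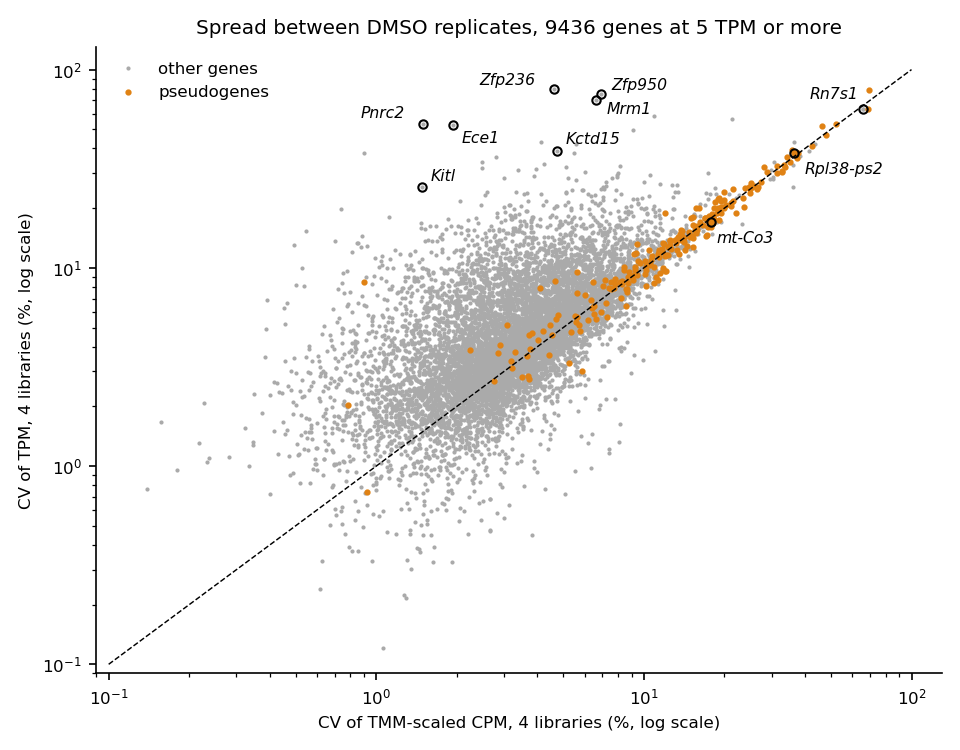
Coefficient of variation over the 4 DMSO libraries of TPM (vertical, percent, log scale) against that of TMM-scaled CPM (horizontal, percent, log scale) for 9436 genes at 5 TPM or more in every library; orange points are pseudogenes, open circles are labelled genes and the dashed line marks equal values. Zfp236, Zfp950, Mrm1, Pnrc2, Ece1, Kctd15 and Kitl lie far above the line, while the pseudogenes and Rn7s1 reach high values along it.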

How the data were processed

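The labels' protocols give Direct-zol extraction of total RNA, TruSeq libraries of polyadenylated RNA and paired-end NextSeq sequencing. The submitters' processing notes list STAR 2.7.8a, RSEM 1.3.3, cutadapt 2.3, MultiQC 1.7 and FastQC 0.11.8 beside build GRCm38, without roles or order. The gene models used and any strand setting are not given there, so overlapping and antisense genes may be mixed. For 55492 genes the authors deposited expected counts (whole numbers here), TPM (per length, to a total of 1000000) and FPKM (per kilobase and 1000000 fragments). Reads shared by near-identical genes are divided by a model, which makes ferritin, actin, Gapdh, Hmga1, Pgk1 and ribosomal protein genes with pseudogenes less certain.

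Each library's group and replicate number came from its title, and 4 of 8 libraries were used; the 4-OI libraries entered no step. Positions and merged exon lengths came from GENCODE mouse release M21 (55227 identifiers matched). Where 114 symbols stood on 234 rows, the row with the highest mean kept the symbol. Levels are means and SD of TPM over 4 libraries. The spread was estimated with edgeR 4.0.16 in R 4.3.3 (filterByExpr with minimum count 10, TMM, estimateDisp with an intercept) on expected counts, with DESeq2 1.42.0 size factors as an alternative; on simulated counts of 12808 and 12797 genes the procedure returned 3.03% for a simulated 3% and 5.99% for 6%. Other steps used Python 3.11.15 with pandas 2.3.3, scipy 1.17.1 and matplotlib 3.10.9. No batch is given in the labels.

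The libraries, the 21 gene lists and the 9 gene families were chosen with earlier results of these data known. Named genes followed a rule: the 30 highest genes, the 5 highest members and the marked members of each list, the first and second isozyme of each group, and the 10 genes of widest and narrowest spread relative to 200 genes of near mean. Other genes named were chosen after their values were seen. So were the promoter comparison with its 3 motifs and its 4 printed windows, the pairing of ligands with receptors, the split of isozymes by compartment, the comparison of pseudogenes with mitochondrial genes, the CPM spread, and the limit of families to protein-coding members without pseudogene or antisense names. A family of histone genes was dropped because it matched few symbols, and values under 1 TPM were not screened for outlying libraries. Some members of the lists are counted but not reported by name here, and are not drawn in the figures.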

Additional observations from a re-analysis of the deposited data

Results flagged for a closer look

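Each named gene at 1 TPM or more in every library, and 6 totals of each library, were screened for a library whose gap to its nearest neighbour, as a share of the whole range, exceeds Dixon's 95% limit for 4 samples. Of 318 values, 21 (6.60%), all of them genes, had such a library. Chance marks about 1 in 20 groups, but the genes screened include some named for their wide spread, and Rn7s1 and Rn7s2 are 1 set of values counted under both names, so the share is not set against chance. The outlying library was replicate 1 for 7 genes, replicate 2 for 1, replicate 3 for 5 and replicate 4 for 8.

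The widest gaps were in genes of the spread comparison. Zfp236 had 61.25 TPM in replicate 1 against 16.07 to 17.84 in the others, and Zfp950 had 32.11 TPM in replicate 1 against 8.58 to 9.99. Kctd15 had 100.72 TPM in replicate 2 against 50.53 to 51.91. The CPM of these 3 genes varied by 4.62%, 6.92% and 4.72%. Rn7s1 and Rn7s2, with identical values, had 82.74 TPM in replicate 4 against 27.72 to 31.49, and their CPM varied by 66.1%.

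Smaller gaps stood high in replicate 4 for S100a4 (5714 TPM) and Hgf (1.86 TPM), and low in replicate 4 for Tfap2a (14.62 TPM), Pcna (331.76 TPM), Il6st (57.6 TPM) and Hoxa11 (22.73 TPM). In replicate 3 they stood high for Sparc (1522 TPM), Slc30a4 (211.24 TPM) and Pfkp (80.63 TPM), and low for Cnn1 (11.52 TPM) and Slc25a5 (469.38 TPM). In replicate 1 they stood high for Actg1 (2176 TPM), Abcf2 (112.5 TPM) and Rrm2 (113.7 TPM), and low for Vdac3 (221.37 TPM) and Slc16a3 (41.08 TPM). For Sparc, Pcna, Actg1 and Abcf2 the CV of CPM was under 1%: 0.742%, 0.596%, 0.897% and 0.756%.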

How the results depend on the processing

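The mitochondrial share of TPM, 10.5% as reported, was 9.26% by counts per kilobase of merged exons and 13.1% with the nuclear copies added, an alternative chosen after seeing the data. At 5 TPM in every library in place of 1, expressed oncofetal genes numbered 4 and not 7, and HOX genes 15 and not 24. The biological coefficient of variation was 2.26% to 2.86% with 1 library left out, 2.57% with DESeq2 size factors and 2.75% with no count filter beyond 0. At 5 TPM immune markers numbered 0 and not 1 and keratinocyte markers 0 and not 2, and at 0.5 TPM immune markers numbered 2. In the 22 other lists and families recomputed, and in the number of all expressed genes, no count moved by over 1.5 times under merged exon length, TPM without mitochondrial genes, a limit of 0.5 or 5 TPM, a mean of 1 TPM, or with any library left out; PAX and ribosomal protein genes were not recomputed. FPKM scaled to 1000000 is TPM apart from rounding. The isozyme leader was the same in all 51 groups with any library left out and in 44 by merged exon length; Pfkfb4, Pdp2, Me1, Vdac1, Cox7a2l, Ptgs2 and Car13 led there. Of 418 named genes, merged exon length moved 314 by more than 1 SD and leaving mitochondrial genes out of the total moved 269 of 407. Few reads limit genes under 1 TPM. No paired analysis was possible because only 1 group is described and no groups are compared.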
